A study of Mus musculus with 12 samples.

Results

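The 59 genes described here are neighbours of Arhgap35 on mouse chromosome 7. They were named in advance as genes lying within about 4 Mb of Arhgap35, and they make up 59 of the 30740 gene symbols in the deposited count table. All 59 have a position on chromosome 7 of GRCm38 in GENCODE M21, between bases 15946958 and 19771016, a stretch of 3.82 Mb. Of these genes, 58 code for proteins and 1, 9330104G04Rik, is a long noncoding RNA. The genes were chosen on their position, by a list drawn up knowing how the knockout libraries differed from the controls in GFP-positive cells, so that difference is given for the members as a description only. Its calls and intervals are printed as they came from a fit over all genes, beside the share called over all genes, and nothing about the members is read from them. The difference between GFP-positive and GFP-negative cells was not part of the choice and was tested, in a fit that takes in the same GFP-positive libraries.

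Arhgap35 encodes p190, a GTPase-activating protein that restrains actomyosin contraction. Genes that lie close together on a chromosome are inherited together. When a mutation is made in embryonic stem cells of one mouse strain and the mice are later bred to another strain, the DNA around the mutation usually stays that of the first strain, so mutant and control littermates can differ in sequence at neighbouring genes as well as at the target. Some of the neighbours belong to general cell machinery, such as the TFIIH helicase Ercc2, the Sm protein Snrpd2 and the adaptor subunit Ap2s1, and others are known from neurons, such as the splicing regulator Nova2 and the calcium sensor Calm3.

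The RNA-seq libraries were made from ventral spinal cord of CB6F1/J mouse embryos at E12.5 (embryonic days), pooled, dissociated with papain and sorted on the Hb9:GFP reporter. In this transgene the promoter of Mnx1 (Hb9) drives GFP, which marks spinal motor neurons. Knockout (KO) libraries came from Arhgap35 knockout embryos and control libraries from littermates, which carry wild-type (WT) titles although the extraction protocol describes control littermates as wild-type or p190+/-. There were 5 KO and 5 WT libraries of GFP-positive cells and 1 KO and 1 WT library of GFP-negative cells. All 12 libraries therefore share the reporter, the age and the strain name. Which part of Arhgap35 was removed, on which strain the mutation was made, the number of embryos in each pool and the mix of genotypes in each control pool are not given in the labels. The KO genotype and the sequence of the surrounding chromosome cannot be told apart in this design. No label ties a library to a separate litter, so every p-value below measures spread between libraries, part of which may be technical.

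Total estimated counts were 24.6 to 33.8 M in KO and 23.7 to 30.2 M in WT GFP-positive libraries, and 26.5 M and 28.7 M in the KO and WT GFP-negative libraries. Levels below are CPM, counts scaled by TMM-adjusted library size, unless TPM is named, and 3 counts in a library stand for 0.0891 to 0.127 CPM. Summed over 9 motor neuron markers, the level was 1710 to 2100 CPM in KO and 1650 to 2140 CPM in WT GFP-positive libraries, against 64.7 and 69.6 CPM in the KO and WT GFP-negative libraries. Mnx1 itself stood at 0.438 CPM in the KO and 0.508 CPM in the WT GFP-negative library, so the label that calls these samples motor neurons too goes against the data, and they are called GFP-negative here. Ventral interneuron markers varied between GFP-positive libraries, from 40.5 to 120.0 CPM in KO and from 35.7 to 166 CPM in WT as a sum over 8 genes, and were high in the libraries numbered 1 and 4 of both genotypes. KO replicate 2 had the highest sums of 6 endothelial markers (14.4 CPM, against 2.09 to 6.87 CPM in the other GFP-positive libraries), of 6 mesenchymal and pericyte markers (14.8 CPM) and of 6 erythroid markers (46.8 CPM). No marker tested was called between KO and WT. All 8 ventral interneuron markers had negative log2 fold changes between KO and WT (median -0.59), while the 5 endothelial and the 5 erythroid markers tested all had positive ones (medians 0.61 and 0.63). Their part in the differences of the members was not tested.

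Arhgap35 (chr7:16493719-16614993, minus strand) had 98.6, 88.3, 103, 106 and 89.3 CPM in KO libraries 1 to 5, against 161, 202, 178, 187 and 135 CPM in WT libraries 1 to 5. In GFP-negative cells it had 96.4 CPM in the KO and 155 CPM in the WT library. All KO libraries lay below all WT libraries in both sorts, although part of the transcript was still read in KO cells. The table also lists an older symbol of the gene, Grlf1, and both entries together gave 96.6 to 113 CPM in KO and 170 to 268 CPM in WT GFP-positive libraries. Without knowledge of the deleted part, these values are a check of direction only.

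The neighbours fall into 3 blocks along the chromosome. Before Arhgap35 lie 14 members, out to Ehd2 at 526.2 kb. Another 14 lie 123.4 to 416.5 kb after it, from Ap2s1 to Hif3a, and 31 lie 2275.9 to 3141.1 kb after it, from Ccdc61 to Bcam. In TPM, which allows for length, 10 members were above 100 TPM on average in WT GFP-positive cells, 30 were at 10 to 100 TPM, 12 at 1 to 10 TPM and 7 under 1 TPM. Calm3 was the most abundant, at 1110 ± 62.1 TPM in KO and 1020 ± 38.3 TPM in WT cells (SD, n = 5 each), followed in WT cells by Ap2s1, Meis3, Snrpd2 and Napa, which lay close together and stood in another order in KO cells. The 7 under 1 TPM were Zfp541, C5ar1, Inafm1, Gng8, Ptgir, Six5 and Ckm. Of these, Inafm1 is there only as a split entry, since its older symbol Prr24 was counted separately and stood at 4.75 TPM in KO and 26.3 TPM in WT cells. Of the 59 members, 54 had enough counts to enter the KO comparison, and Zfp541, C5ar1, Gng8, Ptgir and Ckm did not.

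Comparing KO with WT GFP-positive cells takes in the loss of Arhgap35 together with any difference in the surrounding chromosome. It is the contrast known when the members were chosen. In it 4 of the 54 members tested were called at an adjusted p under 0.05, beside 6 of 17487 genes (0.0343%). Gipr was higher, and it was itself the 1 gene called higher among all genes (0.00572%). Ccdc61, Ercc2 and 9330104G04Rik were lower, and they and Arhgap35 were among the 5 genes called lower (0.0286%). With the replicate number as a block, 4 members were called beside 5 of all genes (0.0286%), with Bcam in place of Gipr. No member was called when KO replicate 1, 3, 4 or 5 or WT replicate 2, 3 or 4 was left out. Without KO replicate 2, Inafm1 was the only member called, beside 2 of all genes. In 11 of the 54 members no KO library overlapped the WT range, 7 with KO above and 4 with KO below. This is 20.4%, beside 0.538% of all genes tested (0.223% with KO above and 0.315% with KO below). The share was 5.26% of the 19 other genes tested in the same stretch. It was 3.23% of 31 genes within 4 Mb of Arhgap35 outside the stretch, and no gene of either set was called. The difference had 1 direction in all 5 number-matched pairs of libraries for 17 members with KO higher and 9 with KO lower, and for 6.74% of all genes (3.11% with KO higher and 3.63% with KO lower). Since the members were chosen with these differences known, the shares describe the list.

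The differences ran both ways and were mostly small. The median log2 fold change of the 54 members was 0.0032, with 28 positive and 26 negative values. The median absolute log2 fold change was 0.128, beside 0.0475 over all genes tested. It was 0.155 over the 19 other genes tested in the same stretch, 0.0992 over 31 genes within 4 Mb of Arhgap35 outside the stretch, and 0.0444 over 801 genes of chromosome 7 more than 20 Mb away. At an average log2 CPM of 3 or more, where counting error is smaller, it was 0.0794 over 38 members, 0.034 over 7 other genes of the stretch, 0.027 over 19 other genes within 4 Mb and 0.0305 over 10676 genes. In 41 of 54 members the 95% interval of the fold change stayed inside a 1.5-fold change either way, and 24 members had an absolute log2 fold change under 0.1. By block, the median absolute log2 fold change was 0.167 over 12 members before Arhgap35, 0.185 over 12 members close after it and 0.0853 over 30 members of the distant block. At an average log2 CPM of 3 or more, these medians were 0.124 over 9 members, 0.0285 over 7 members and 0.0639 over 22 members, so the order of the blocks depended on that filter. Just outside the stretch, Gltscr2 and Gm24576 on one side had log2 fold changes of 0.00 and 0.10, and Gm19345 and Ceacam16 on the other had -0.31 and -0.18, each with overlapping libraries.

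**Figure D1:**
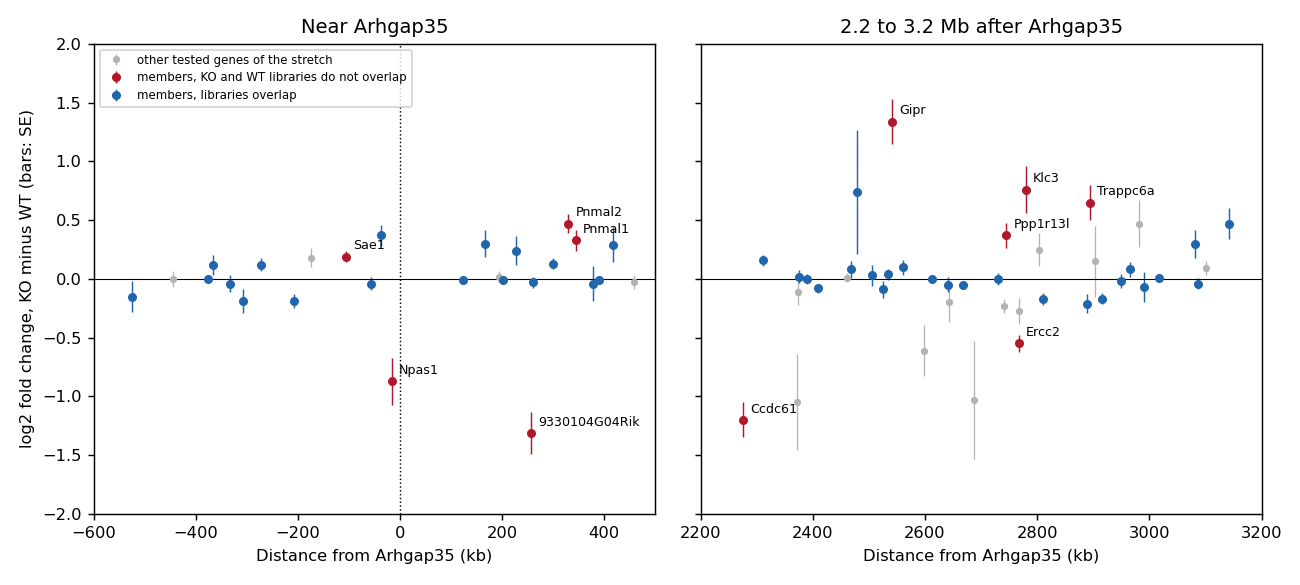
Log2 fold change of KO minus WT GFP-positive cells (y axis, bars are SE, n = 5 libraries each) against distance from the near edge of Arhgap35 in kb (x axis) for the members tested and, in grey, other tested genes of the stretch. The 11 members whose libraries do not overlap (red) are spread over all 3 blocks and lie on both sides of 0; Inafm1, at 4.75, is left out because its counts are split over a pair of symbols.

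Among receptors and signalling genes, Gipr, the receptor for the gut hormone GIP that signals through cyclic AMP (chr7:19156061-19166127, minus strand), was the member called higher. It had 6.70, 7.02, 6.98, 7.54 and 6.91 CPM in KO libraries 1 to 5, against 3.71, 1.78, 2.56, 1.97 and 3.77 CPM in WT libraries 1 to 5. KO libraries were tightly grouped above all WT libraries, and WT libraries 1 and 5 were the WT libraries closest to them. The fitted log2 fold change was 1.34 (SE 0.194, 95% interval 0.92 to 1.77). With the replicate block it was 1.38 (SE 0.189), and Gipr was not called there (edgeR adjusted p = 0.0965). The other tested members of this group had smaller log2 fold changes with overlapping libraries, namely 0.24 for the protein kinase Prkd2, 0.13 for the calmodulin gene Calm3 and -0.03 for the Wnt regulator Dact3. Calm3 was higher in KO in 5 of 5 pairs, as was Prkd2. The complement receptor C5ar1 was at or under the level of 3 counts in all 12 libraries, while the prostacyclin receptor Ptgir and the G protein subunit Gng8 stayed at 0.546 CPM and below in GFP-positive cells.

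Ccdc61, a coiled-coil protein found at the centrosome in human cells (chr7:18890883-18910415, minus strand), is the first gene of the distant block and was called lower. It had 4.45, 4.33, 3.67, 3.56 and 3.32 CPM in KO libraries 1 to 5, against 7.12, 9.90, 8.44, 11.6 and 7.29 CPM in WT libraries 1 to 5. All KO libraries were below all WT libraries, and again WT libraries 1 and 5 were nearest to KO. The log2 fold change was -1.20 (SE 0.148, 95% interval -1.52 to -0.87). Of the other cytoskeletal genes, the kinesin light chain Klc3 gave 0.985 to 1.85 CPM in KO and 0.696 to 0.974 CPM in WT libraries, without overlap but at a low level (log2 fold change 0.76, SE 0.200). The microtubule-binding protein Eml2 and the actin regulator Vasp had log2 fold changes of 0.10 and -0.05, with overlapping libraries.

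Both DNA repair genes of the list sit in the distant block, with a lower KO level in one of them. Ercc2, the XPD helicase of TFIIH (chr7:19382010-19395694, plus strand), had 45.2, 48.8, 47.4, 51.7 and 49.7 CPM in KO libraries 1 to 5, against 69.2, 72.5, 73.5, 81.3 and 59.8 CPM in WT libraries 1 to 5. No library overlapped, and the log2 fold change was -0.55 (SE 0.0705, 95% interval -0.71 to -0.40). Ercc1, which pairs with Ercc4 in the incision nuclease, lay at 23.1 to 25.1 CPM in KO and 21.2 to 24.6 CPM in WT libraries and had a log2 fold change of 0.00 (SE 0.0516). Ercc2 shares 744 exonic bases with Klc3 and 1025 with the antisense gene Gm26852, which had a log2 fold change of -0.27. The library kit kept no strand, so reads in shared bases cannot be told apart. Of the members, 13 share exonic bases with another gene, and 4 share over 20% of theirs, namely Ercc2, Klc3, Nova2 and Mypop. Their values carry that limit.

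The noncoding RNA 9330104G04Rik (chr7:16871347-16874886, minus strand), in the block close after Arhgap35, has no stated function. It had 1.97, 1.24, 1.63, 1.81 and 1.57 CPM in KO libraries 1 to 5, against 3.61, 4.67, 4.11, 5.14 and 2.88 CPM in WT libraries 1 to 5. The groups did not overlap, and the log2 fold change was -1.31 (SE 0.178, 95% interval -1.69 to -0.92). Its start lies head to head with that of Dact3, with 431 bases between the starts, yet Dact3 had 35.6 to 40.9 CPM in KO and 36.4 to 40.2 CPM in WT libraries.

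Another head-to-head pair is Trappc6a, a subunit of the TRAPP tethering complex (chr7:19508395-19516145, plus strand), and Bloc1s3, a subunit of the lysosome-related BLOC-1 complex (chr7:19504486-19508367, minus strand), whose starts are 28 bases apart. Qpctl and Snrpd2 also lie head to head, 431 bases apart, with log2 fold changes of -0.09 and 0.04. So do Klc3 and the untested Ckm, 672 bases apart. Trappc6a had 10.2, 9.58, 8.49, 8.43 and 8.14 CPM in KO libraries 1 to 5, against 7.95, 5.06, 5.46, 4.22 and 5.85 CPM in WT libraries 1 to 5. Bloc1s3 had 10.6, 10.1, 8.24, 9.41 and 9.10 CPM in KO libraries 1 to 5, against 11.2, 11.3, 10.3, 11.5 and 10.3 CPM in WT libraries 1 to 5. Trappc6a was higher in all KO libraries (log2 fold change 0.65, SE 0.146), while Bloc1s3 was lower in all 5 pairs with ranges that overlapped (log2 fold change -0.21, SE 0.0785). The other membrane traffic genes had log2 fold changes of 0.00 for the SNARE recycling factor Napa, -0.01 for the clathrin adaptor subunit Ap2s1, -0.05 for the reticulon Rtn2 and -0.15 for the endocytic ATPase Ehd2.

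The promoters of the 3 members called lower and of the Dact3, Trappc6a and Bloc1s3 starts are printed below, the last 3 because each starts beside another member whose fold change differs from its own. Each is 300 bases on the strand of the gene, 250 before the annotated start and 50 after it, from RefSeq on GRCm38.p6. Distances between starts are from GENCODE M21, whose start of Trappc6a lies before the RefSeq start. Capitals mark matches, on either strand, to the TATA box as TATAAA, the CCAAT box, the GC box as GGGCGG and the E-box as CACGTG, with overlaps counted. The windows are chr7:18910355-18910654 for Ccdc61, chr7:19381767-19382066 for Ercc2, chr7:16874837-16875136 for 9330104G04Rik, chr7:16875067-16875366 for Dact3, chr7:19508420-19508719 for Trappc6a and chr7:19508321-19508620 for Bloc1s3.
Ccdc61: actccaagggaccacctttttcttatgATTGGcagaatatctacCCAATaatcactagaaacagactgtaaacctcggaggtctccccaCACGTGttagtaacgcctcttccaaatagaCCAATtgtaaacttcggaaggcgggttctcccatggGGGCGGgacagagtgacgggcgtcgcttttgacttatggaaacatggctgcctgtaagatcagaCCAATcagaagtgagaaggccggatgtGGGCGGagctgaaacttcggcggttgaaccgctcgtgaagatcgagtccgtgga
Ercc2: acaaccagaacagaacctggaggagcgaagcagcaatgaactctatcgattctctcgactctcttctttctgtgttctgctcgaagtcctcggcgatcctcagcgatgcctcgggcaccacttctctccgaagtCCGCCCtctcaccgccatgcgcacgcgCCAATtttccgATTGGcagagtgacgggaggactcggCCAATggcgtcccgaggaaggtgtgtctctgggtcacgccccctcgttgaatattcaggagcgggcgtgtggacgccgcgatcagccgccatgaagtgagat
9330104G04Rik: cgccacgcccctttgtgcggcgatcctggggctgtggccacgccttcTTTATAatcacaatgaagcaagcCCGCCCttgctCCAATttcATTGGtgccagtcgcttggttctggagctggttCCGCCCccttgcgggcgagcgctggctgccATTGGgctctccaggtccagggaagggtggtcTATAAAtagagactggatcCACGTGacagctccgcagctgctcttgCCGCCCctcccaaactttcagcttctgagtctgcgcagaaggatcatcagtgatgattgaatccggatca
Dact3: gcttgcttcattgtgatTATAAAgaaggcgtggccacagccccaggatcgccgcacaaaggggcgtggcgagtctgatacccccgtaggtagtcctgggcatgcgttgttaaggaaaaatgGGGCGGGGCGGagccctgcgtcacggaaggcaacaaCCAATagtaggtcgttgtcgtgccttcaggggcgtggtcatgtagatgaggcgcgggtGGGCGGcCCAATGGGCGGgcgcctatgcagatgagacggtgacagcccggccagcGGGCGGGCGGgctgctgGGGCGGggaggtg
Trappc6a: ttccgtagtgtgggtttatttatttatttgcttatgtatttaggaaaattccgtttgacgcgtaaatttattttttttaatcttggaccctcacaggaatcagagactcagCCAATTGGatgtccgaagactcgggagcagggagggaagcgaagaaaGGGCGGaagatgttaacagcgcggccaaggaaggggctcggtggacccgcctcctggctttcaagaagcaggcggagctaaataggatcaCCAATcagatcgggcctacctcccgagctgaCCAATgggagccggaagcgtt
Bloc1s3: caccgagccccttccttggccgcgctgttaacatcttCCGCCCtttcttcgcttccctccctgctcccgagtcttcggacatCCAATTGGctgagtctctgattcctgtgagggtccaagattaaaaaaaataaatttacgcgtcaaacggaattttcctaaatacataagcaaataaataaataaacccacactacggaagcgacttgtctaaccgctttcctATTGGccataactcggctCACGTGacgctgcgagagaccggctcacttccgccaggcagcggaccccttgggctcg

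The windows of 9330104G04Rik and Dact3 share 70 bases, and those of Trappc6a and Bloc1s3 share 201 bases, read from opposite strands. A TATAAA match that lies in the bases shared by 9330104G04Rik and Dact3 is counted in both. 9330104G04Rik held 2 TATAAA matches, Dact3 held 7 GGGCGG matches, some overlapping one another, and Ccdc61 and Trappc6a held 4 CCAAT matches each. Of the 52 members with a promoter in the table, 73.1% held GGGCGG, against 35.7% of 32851 promoters. The shares were 40.4% and 37.4% for CCAAT, 5.77% and 13.6% for TATAAA, and 9.62% and 7.15% for CACGTG, members first. Median GC content was 61.3% in the members and 52.7% in all promoters. These are matches of letters in the reference sequence and say nothing about binding or about the alleles in these embryos.

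**Figure D2:**
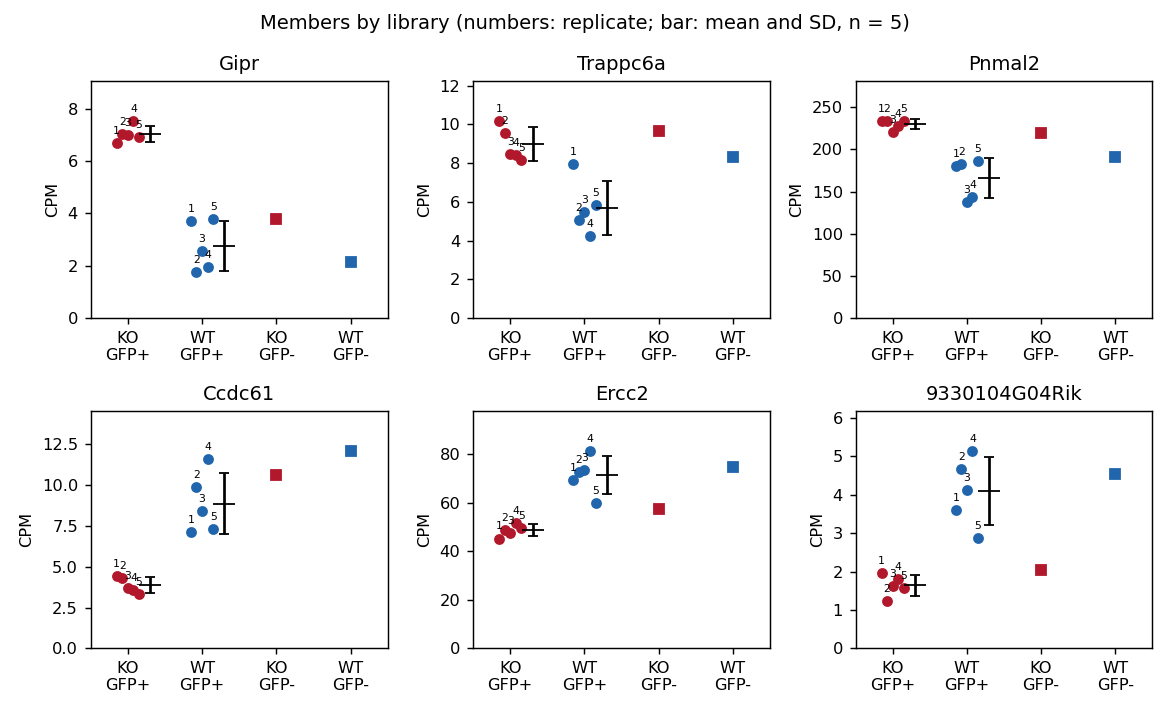
CPM (y axis, from 0) of 6 members in KO and WT GFP-positive libraries (circles with replicate numbers; bars are mean and SD, n = 5 each) and in the single KO and WT GFP-negative libraries (squares). In GFP-positive cells Gipr, Trappc6a and Pnmal2 lie higher and Ccdc61, Ercc2 and 9330104G04Rik lower in every KO library than in every WT library.

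Pnmal2 and Pnmal1, genes of the paraneoplastic Ma antigen family that lie side by side, were both higher in KO. Pnmal2 had 234, 234, 220.0, 228 and 233 CPM in KO libraries 1 to 5, against 180.0, 182, 137, 144 and 186 CPM in WT libraries 1 to 5 (log2 fold change 0.47, SE 0.0826). Pnmal1 had 37.7, 35.4, 34.2, 36.2 and 34.0 CPM in KO libraries 1 to 5, against 33.3, 29.5, 23.6, 23.9 and 30.8 CPM in WT libraries 1 to 5 (log2 fold change 0.33, SE 0.0894). In both genes the KO libraries were close together and above all WT libraries.

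Bcam, a laminin receptor at the far end of the list (chr7:19756131-19771016, minus strand), was called only with the replicate block. It had 17.3, 20.1, 18.6, 19.5 and 24.9 CPM in KO libraries 1 to 5, against 13.1, 13.4, 13.5, 12.8 and 19.5 CPM in WT libraries 1 to 5. Libraries numbered 5 were the highest of both genotypes, so the groups overlapped although KO was higher in 5 of 5 pairs. The log2 fold change was 0.47 (SE 0.131) without the block and 0.48 with it. Among the other membrane proteins, Tmem160 had 11.9 to 14.3 CPM in KO and 9.12 to 11.9 CPM in WT libraries (log2 fold change 0.37, SE 0.0889). The neutral amino acid transporter Slc1a5 had 6.94 to 8.59 CPM in KO and 5.31 to 7.35 CPM in WT libraries (log2 fold change 0.30, SE 0.115). The sodium-calcium exchanger Slc8a2 and Clptm1, which limits GABA-A receptor assembly, had log2 fold changes of -0.04 and 0.01.

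Inafm1, a small membrane protein gene, had the largest fitted fold change of the list, but its counts are split between a pair of symbols. Inafm1 had 17.3, 0.413, 18.7, 19.0 and 18.0 CPM in KO libraries 1 to 5, against 0.663, 0.425, 0.630, 0.335 and 0.635 CPM in WT libraries 1 to 5. The older symbol of the same gene, Prr24, is a separate entry with 0, 17.6, 0, 0 and 0 CPM in KO libraries 1 to 5, against 19.1, 18.1, 21.2, 20.4 and 17.8 CPM in WT libraries 1 to 5. Each library put nearly all counts on one of the symbols, and KO replicate 2 did so as WT libraries did. Both entries together gave 17.3 to 19.0 CPM in KO and 18.4 to 21.9 CPM in WT libraries, with overlapping groups. The log2 fold change was 4.75 for the Inafm1 entry (5.06 without KO replicate 2) and -0.13 for the sum, which was added after the values were seen.

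**Figure D3:**
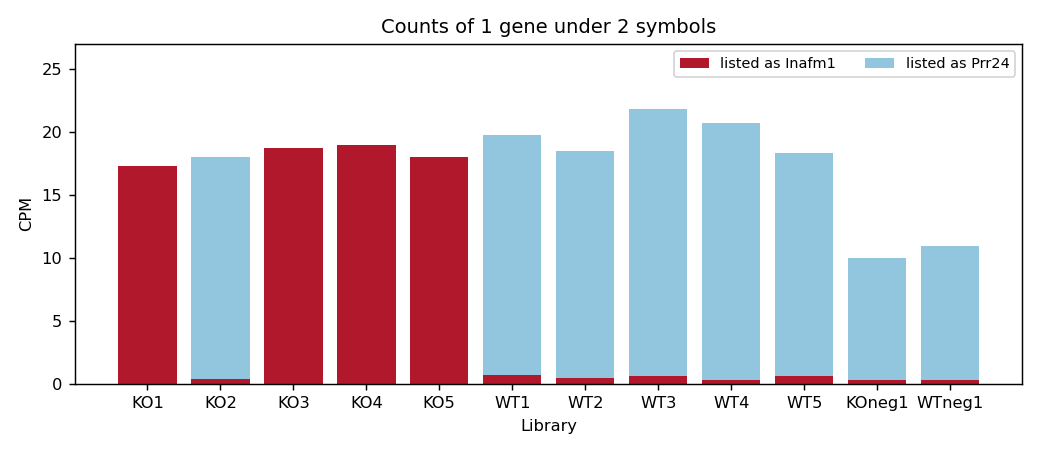
Stacked CPM per library (y axis, from 0) of the entries Inafm1 (red) and Prr24 (light blue), current and older symbols of 1 gene, in KO and WT GFP-positive and GFP-negative libraries. The stacks of the GFP-positive libraries reach 17.3 to 21.9 CPM, while the share listed as Inafm1 is nearly all in KO libraries 1, 3, 4 and 5 and little elsewhere.

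Transcription factors of the list showed 1 member without overlap. Npas1, a bHLH-PAS factor whose gene ends 16.0 kb before Arhgap35 and is its nearest member, had 1.02, 0.660, 0.490, 0.861 and 0.684 CPM in KO libraries 1 to 5, against 1.16, 1.32, 1.51, 1.46 and 1.40 CPM in WT libraries 1 to 5. KO libraries were lower throughout (log2 fold change -0.87, SE 0.200), at a level of few counts. The homeobox gene Meis3 had 115 to 129 CPM in KO and 112 to 169 CPM in WT libraries (log2 fold change -0.19, SE 0.102). Six5, a homeobox gene, had 0.205 to 1.10 CPM in KO and 0.0847 to 0.762 CPM in WT libraries, with the highest value in the libraries numbered 1 of both genotypes. The hypoxia-related factor Hif3a had a log2 fold change of 0.29, and Mypop, the corepressor Irf2bp1 and the NF-kappa-B subunit Relb lay between -0.07 and 0.02.

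Sae1, a subunit of the enzyme that activates SUMO, had the smallest difference among the members without overlap. It had 158, 163, 155, 159 and 164 CPM in KO libraries 1 to 5, against 151, 136, 143, 126 and 145 CPM in WT libraries 1 to 5 (log2 fold change 0.19, SE 0.0448). Ppp1r13l, an inhibitor of p53 known as iASPP, had 4.65 to 6.09 CPM in KO and 3.70 to 4.57 CPM in WT libraries (log2 fold change 0.37, SE 0.107). Both stayed above WT in all KO libraries, by a narrow margin for Ppp1r13l. Of the other protein modification genes, Ccdc8, Fbxo46 and Qpctl had log2 fold changes of -0.04, 0.03 and -0.09.

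Kinases and phosphatase partners included a pair that was lower in KO in all 5 pairs with overlapping ranges. The microtubule affinity kinase Mark4 had 64.9 to 73.3 CPM in KO and 71.1 to 82.5 CPM in WT libraries, and the phosphatase regulator Ppp1r37 had 111 to 123 CPM in KO and 120.0 to 143 CPM in WT libraries. Both had a log2 fold change of -0.17. The striatin Strn4, the phosphatase Ppp5c and the myotonic dystrophy kinase Dmpk had -0.01, -0.01 and 0.08. The KICSTOR subunit Kptn, which anchors nutrient signalling at lysosomes, had 0.12.

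All 8 RNA processing genes were tested, and none was called in this contrast. Their log2 fold changes ran from -0.19 for the coiled-coil gene Ccdc9 to 0.16 for the splicing regulator Nova2. Nova2 had 341 to 383 CPM in KO and 302 to 354 CPM in WT libraries, and was higher in KO in 5 of 5 pairs with ranges that overlapped. It shares 2652 exonic bases with the antisense gene Gm26821, which had 0 to 12.8 CPM in GFP-positive libraries. Ccdc9 and Sympk were lower in KO in 5 of 5 pairs. The nonsense-mediated decay helicase Dhx34 had 0.12, the polyadenylation scaffold Sympk -0.08, the Sm protein Snrpd2 0.04, the SMN complex member Gemin7 -0.02, Clasrp 0.08 and Zc3h4 -0.04. Of the mitochondrial and lipid transport genes, the import pore Tomm40 and Opa3 had -0.04 and 0.00. The lipid carrier Apoe had 4.38 to 5.82 CPM in KO and 3.40 to 4.60 CPM in WT libraries, with a log2 fold change of 0.30 (SE 0.118).

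The WT libraries did not stand at equal distance from KO. WT libraries 1 and 5 were the nearest to KO for Arhgap35, for Grlf1 and for 8 of the 11 members without overlap (72.7%), namely 9330104G04Rik, Ccdc61, Ercc2, Gipr, Pnmal1, Ppp1r13l, Sae1 and Trappc6a. The same held for 27.8% of 54 members, for 17.0% of all 94 genes without overlap and for 5.92% of 17487 genes. This count was chosen after the values were seen, and the part of a mixed control pool in it was not tested.

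**Figure D4:**
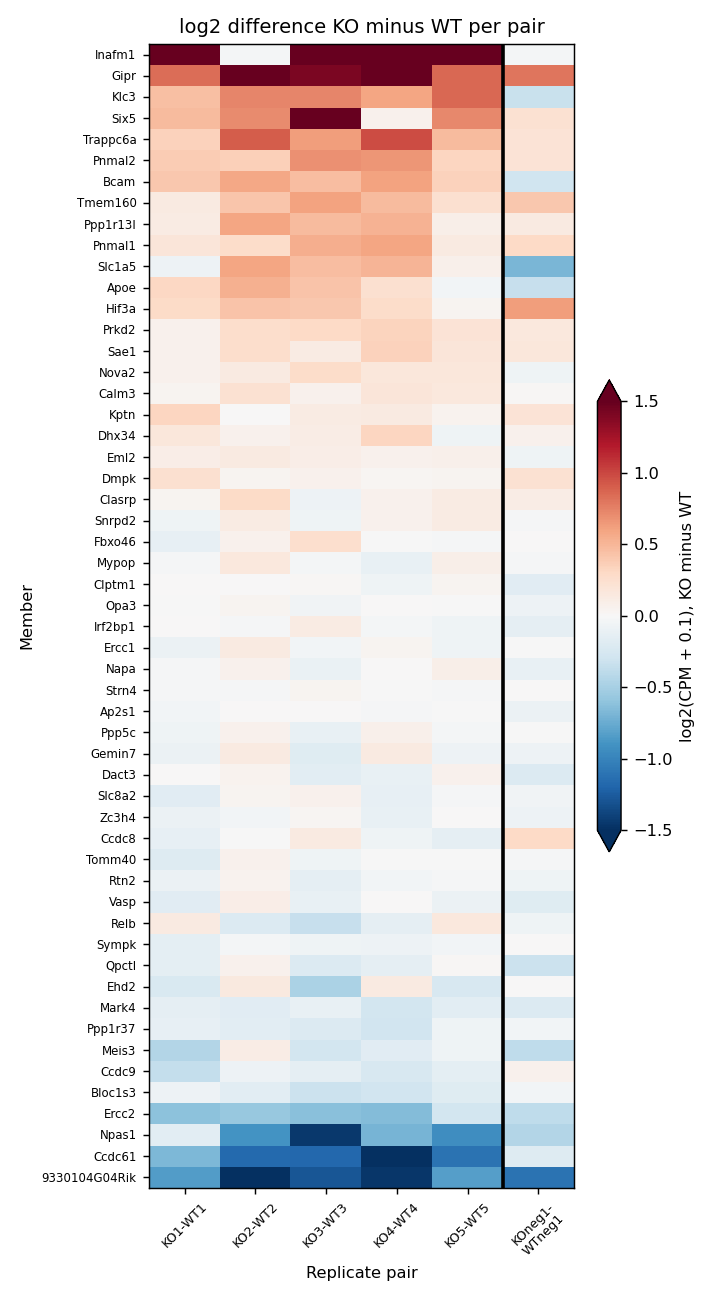
Difference in log2(CPM + 0.1), KO minus WT, for the 54 members tested (rows, ordered by fitted fold change) in the 5 number-matched GFP-positive pairs and, right of the black line, the single GFP-negative pair (columns); red is higher and blue lower in KO, with colours ending at 1.5. Differences ran in 1 direction over all 5 GFP-positive pairs in 17 members with KO higher and 9 with KO lower, and the GFP-negative pair had the sign of the fitted fold change in 38 of 54.

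The GFP-negative pair gives the KO difference in other cells of the ventral cord, with 1 library of each genotype and hence no test. Of the 54 members, 38 had the same sign as in GFP-positive cells and 16 the opposite one (70.4% same), beside 51.6% of all genes tested. Among the 17 members with an absolute log2 fold change of at least 0.25 the sign was shared by 12 (70.6%), beside 54.9% of such genes overall. Among the 11 members whose GFP-positive libraries did not overlap it was shared by 10 (90.9%), beside 58.5% of such genes. The exception was Klc3, with 0.329 CPM in the KO and 0.441 CPM in the WT GFP-negative library. The members were listed knowing the GFP-positive difference, and the 11 without overlap were picked on it. Libraries numbered 1 of both sorts may also share embryos, so nothing is read from these shares.

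The values of single members in GFP-negative cells come from 1 library a genotype and carry no test of their own. 9330104G04Rik had 2.05 CPM in the KO and 4.54 CPM in the WT library, close to the GFP-positive values. Gipr had 3.80 and 2.14 CPM in the KO and WT library, and Ercc2 had 57.4 and 74.5 CPM in the KO and WT library. Ccdc61 had 10.6 CPM in the KO and 12.1 CPM in the WT library, so the KO library was lower by less than in GFP-positive cells. Pnmal2 had 219 and 191 CPM in the KO and WT library, and Bcam, at 2.59 CPM in the KO and 3.22 CPM in the WT library, ran against its GFP-positive direction.

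Whether the knockout effect itself differed between sorts was estimated as an interaction, GFP-negative minus GFP-positive, taking the single GFP-negative libraries to vary as much as the GFP-positive ones do. None of the 56 members tested was called by edgeR, beside 0.0253% of 19763 genes (5 genes). At an unadjusted p under 0.05 there were 4 members, beside 1.78% of all genes. With the replicate block there were 7 members, and the share of all genes in that fit is not given here. The interaction contains the GFP-positive difference that was known when the genes were chosen, so these values are a description and nothing is read from the counts. Slc1a5 had an interaction of -1.0 on the log2 scale (SE 0.277), with 6.98 CPM in the KO and 11.3 CPM in the WT GFP-negative library. Ccdc61 had 1.0 (SE 0.347), and Clptm1 and Apoe had -0.17 and -0.65. The intervals of these values are wide, from -1.60 to -0.39 for Slc1a5 and from 0.24 to 1.76 for Ccdc61.

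Comparing GFP-positive with GFP-negative cells shows where in the ventral cord each neighbour is read. The choice of members did not use this difference, but the fit takes in the same GFP-positive libraries. Where the KO difference is not alike in both sorts, part of it enters the sort value. Of 56 members tested over all 12 libraries with genotype as a covariate, 18 were called higher (32.1%) and 17 lower (30.4%) in GFP-positive cells. The GFP-negative side is 1 KO and 1 WT library, taken to vary as the GFP-positive ones do, and the p-values below rest on that. Among all 19763 genes 61.9% were called, 30.1% higher and 31.8% lower, shares close to those of the list. Scaling by library size alone gave 15 higher and 22 lower members. By role, 6 of 8 RNA processing genes were lower and 1 was higher, while 4 of 6 membrane traffic genes and 3 of 4 cytoskeletal genes were higher.

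Bcam had the largest excess in GFP-positive cells, at 17.3 to 24.9 CPM in KO and 12.8 to 19.5 CPM in WT GFP-positive libraries against 2.59 and 3.22 CPM in KO and WT GFP-negative cells (log2 fold change 2.53, SE 0.233, edgeR adjusted p = 9.14e-07). All GFP-positive libraries lay above both GFP-negative ones. Klc3 followed at 1.45 (SE 0.322, adjusted p = 0.00136), or 0.90 (adjusted p = 0.0735) without the KO GFP-negative library. Calm3 was higher by 1.11 (SE 0.0646, adjusted p = 7.1e-09), Ehd2 by 0.67 (adjusted p = 0.00359, or 0.0658 without the WT GFP-negative library) and Eml2 by 0.65 (adjusted p = 8.58e-06). Npas1 was higher by 0.64 (adjusted p = 0.0434) at under 2 CPM in all libraries, a call lost when KO replicate 1 or 4, WT replicate 2, 3, 4 or 5, or either GFP-negative library was left out (adjusted p of 0.0527 to 0.363), and with the replicate block (adjusted p = 0.0947).

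Six5 had the largest excess on the GFP-negative side, with 0.0847 to 1.10 CPM in the 10 GFP-positive libraries against 10.6 and 9.02 CPM in KO and WT GFP-negative cells (log2 fold change -4.29, SE 0.421, edgeR adjusted p = 2.03e-06). With the replicate block the value was -3.42 (adjusted p = 1.06e-06). The 8 neural progenitor markers were also lower in GFP-positive cells, and their part in this difference was not tested. Ccdc8, a partner of the ubiquitin ligase Cul7, was lower, at -1.80 on the log2 scale (SE 0.153, adjusted p = 2.24e-07), as was Ccdc61, at -0.99 (SE 0.207, adjusted p = 0.000892), or -0.46 (adjusted p = 0.131) without the KO GFP-negative library. Apoe was at -0.97 (adjusted p = 7.25e-05), Prkd2 at -0.84 (adjusted p = 7.9e-05) and the RNA-processing gene Zc3h4 at -0.75 (adjusted p = 1.83e-07). Among members called in KO, Gipr was higher in GFP-positive cells (0.63, SE 0.252, adjusted p = 0.0428). That call was lost when any KO library, WT replicate 1 or 5 or either GFP-negative library was left out (adjusted p of 0.0504 to 0.418), and with library-size scaling (adjusted p = 0.0598). In the same comparison Ercc2 (-0.15, adjusted p = 0.134) and 9330104G04Rik (-0.23, adjusted p = 0.35) missed the threshold, with intervals of -0.33 to 0.03 and -0.67 to 0.21.

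**Figure D5:**
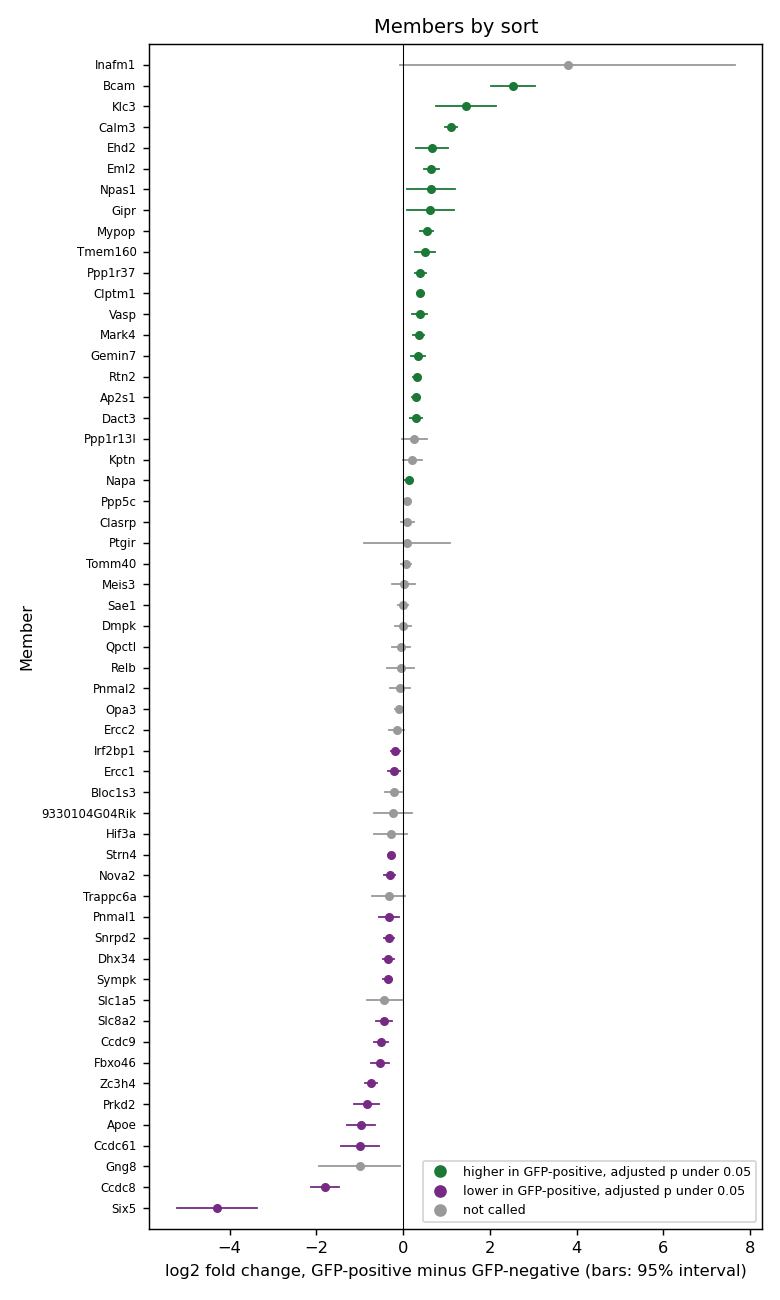
Log2 fold change of GFP-positive minus GFP-negative cells (x axis, bars are 95% intervals, 12 libraries) for the 56 members tested (rows). Bcam at 2.53 and Klc3 at 1.45 are the highest called members and Six5 at -4.29 the lowest; grey members, among them the split entry Inafm1, were not called.

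Genes that work with the members but lie elsewhere were taken as 15 lists, 128 genes in all, none of them within 5 Mb of Arhgap35. All 128 were tested between KO and WT GFP-positive cells. None was called in either direction by edgeR, beside 0.0343% of all genes, or by DESeq2, beside 11 of all genes. By edgeR 2 had an unadjusted p under 0.05, Ddb2 and Cpsf4. In no list gene were the groups without overlap, beside 0.538% of all genes tested. At shares this low a list of 128 genes would mostly hold no call, so nothing is read from these counts. The median absolute log2 fold change over the lists was 0.0246, beside 0.0475 over all genes. At an average log2 CPM of 3 or more it was 0.0235 over the 121 list genes and 0.0305 over all genes. The 18 other genes of TFIIH and nucleotide excision repair had a median log2 fold change of -0.02, from -0.25 for the damage sensor Ddb2 to 0.05 for Rad23b. Summed, they gave 1220 to 1260 CPM in KO and 1220 to 1270 CPM in WT libraries, while Ercc2 itself was at 48.6 ± 2.44 CPM in KO and 71.3 ± 7.78 CPM in WT cells (SD, n = 5 each).

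The 16 genes of the cyclic AMP branch downstream of Gipr and Ptgir had a median log2 fold change of 0.03 and none beyond 0.09. The 14 other TRAPP and BLOC-1 subunits lay between -0.046 and 0.045, and the 14 other genes of the SMN complex and Sm ring between -0.17 and 0.17. The 14 cleavage and polyadenylation factors that act with Sympk had a median of -0.028, with Cpsf4 at 48.1 to 53.7 CPM in KO and 53.6 to 58.3 CPM in WT libraries (log2 fold change -0.12, SE 0.0428, adjusted p = 1.0). In the sort comparison 35.2% of the 128 list genes were higher and 43.8% lower in GFP-positive cells, beside 30.1% and 31.8% of all genes. There 14 of 16 cyclic AMP genes and 6 of 7 AP-2 and SNARE recycling genes were higher in GFP-positive cells. There 11 of 14 genes of the SMN and Sm list, 11 of 14 cleavage and polyadenylation factors and 8 of 9 SUMO pathway genes were lower. Of the TFIIH and repair genes 2 were higher and 9 lower, of the TRAPP and BLOC-1 subunits 7 were higher and 1 lower, and of the 6 kinesin-1 genes 4 were higher and 2 lower. The TOM complex (7 genes) and STRIPAK (9 genes) each had 3 higher and 3 lower, the 5 KICSTOR and GATOR1 genes had 3 lower, and the 4 genes listed with Mark4 had 1 higher and 2 lower. Both other Ena/VASP genes and Nova1 were higher.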

How the data were processed

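Both deposited tables, the authors' estimated counts per gene symbol and their TPM, were made with kallisto on mm10 per the submitters' processing notes; its version and how transcripts were summed are not given in the sources used here. Of the deposited estimated counts 39.2% are whole, and the authors' TPM columns sum to 974800 to 1018241. Every column matched 1 of the 12 samples. Estimated counts were rounded to whole numbers, and edgeR 4.0.16 (robust quasi-likelihood F-test, filterByExpr, TMM; limma 3.58.1, R 4.3.3) was applied, calling genes at a Benjamini-Hochberg adjusted p under 0.05 over the whole table; the code was tested on simulated data. Alternatives were DESeq2 1.42.0, limma on log2(TPM + 1), other scalings, no filter, each library left out and a replicate block. Residuals of libraries sharing a number correlated at r = 0.381, 0.252, 0.179, 0.277 and 0.310, other pairs at most at 0.104. Libraries of the same number thus shared variation, which the replicate block models and the main fits do not. Positions are GENCODE M21 (27001 symbols placed, 3739 not) and promoters RefSeq (52 of 59 members matched). The members and lists were chosen with earlier results of these data known. By rule, the genes that could be named with full values were Arhgap35, members called in either fit, the 10 largest changes per direction with average log2 CPM not below 0, the 6 largest sort differences per direction, the 3 smallest interaction p and up to 2 genes per partner list; a few others were named after their values were seen.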

Additional observations from a re-analysis of the deposited data

Results flagged for a closer look

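Within groups of 5 libraries, 58 groups of named genes were examined for a library far from the others, and 2 stood out. By chance about 1 in 20 groups would. Bcam in WT replicate 5 was at 19.5 CPM, against 12.8 to 13.5 CPM in the other WT GFP-positive libraries. Inafm1 in KO replicate 2 was at 0.413 CPM, against 17.3 to 19.0 CPM in the other KO libraries, while the older symbol Prr24 held 17.6 CPM there.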

How the results depend on the processing

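The number of members called between KO and WT GFP-positive cells was 4 beside 6 of all genes, and the same with DESeq2 size factors and with library-size scaling. It was 4 beside 5 of all genes without a filter and with the replicate block. It was 3 beside 5 of all genes without robust fitting or with all 12 libraries together. By DESeq2 it was 6 beside 11 of all genes, with the split entry Inafm1 and Pnmal2 added. By limma on log2(TPM + 1) it was 0, and no gene at all was called there. Leaving out 1 library gave 0 to 5 calls. The number was 0 without KO replicate 1, 3, 4 or 5 or WT replicate 2, 3 or 4. All but 1 of these 7 fits called no gene at all. The number of members called was 1 (Inafm1) beside 2 of all genes without KO replicate 2, and 4 beside 8 of all genes without WT replicate 5. It was 5 beside 6 of all genes, Trappc6a added, without WT replicate 1. The cause was not tested. Fold changes moved little, from 1.22 to 1.48 for Gipr, -1.27 to -1.08 for Ccdc61, -0.61 to -0.50 for Ercc2 and -1.41 to -1.21 for 9330104G04Rik. The median absolute log2 fold change of the members was 0.112 to 0.148 with 1 library left out, 0.160 without a filter, which adds genes of few counts, and 0.0973 on log2(TPM + 1). Inafm1 turned to -0.13 when summed with Prr24, an alternative added after seeing the data. Without KO replicate 2 the interaction called a member, and only in that fit was the split entry Inafm1 at an unadjusted edgeR p under 0.05. No member was called with any other GFP-positive library left out. Members called by sort ran from 13 to 19 higher and 13 to 18 lower with 1 library left out, and were 16 and 16 with the replicate block. Depth limits the 5 untested members, Klc3, Npas1 and Six5.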
